A study of Mus musculus with 3 samples.

Results

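The cardiac sarcomere genes are 10 genes, taken by symbol from the 31054 features counted in the deposited tables. They are Myl7, Myl4 and Myl3 (myosin light chains), Myh6 and Myh7 (myosin heavy chains), Tnnt2, Tnni1 and Tnnc1 (troponins), Actc1 (cardiac actin) and Ttn (titin). The data are RNA counts of single cells from 3 untreated wild-type (WT) mouse embryos, C57BL/6 x 129 SvEv, collected on embryonic day 8, each dissociated and sequenced as a library of its own. One label allows up to 2 somites and the protocol up to 1, and the study's methods describe removal of the extraembryonic tissue before dissociation. Of 23533 barcodes, 21595 passed quality control (5795, 7956 and 7844 in embryos 1, 2 and 3, whose kept cells had a median of 27635, 14615 and 16332.5 unique molecular identifiers, UMIs), and 57 barcode sequences occurred in more than 1 library. The 3 embryos are the replicates throughout, and each embryo is also a single library, so that stage, handling and library cannot be told apart.

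The sarcomere is the contractile unit of striated muscle, in which thick filaments of myosin slide along thin filaments of actin. Calcium bound by troponin C (Tnnc1) shifts the troponin complex, in which troponin I (Tnni1) holds back the contact with myosin and troponin T (Tnnt2) anchors the complex to tropomyosin, while titin spans the sarcomere as a spring and ruler. In the mouse these genes are first switched on in the cardiac crescent, the arc of mesoderm that forms the heart tube and starts to beat at about this stage, under the transcription factors Nkx2-5 and Mef2c among others.

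Lineages were set by marker UMIs. A cell was given the lineage of which it held the most of 6 marker genes, with at least 3 detected, and none of the 10 genes was a marker. The cardiac-crescent-like cells (markers Nkx2-5, Mef2c, Tbx5, Gata5, Smarcd3 and Sfrp5) numbered 341, 405 and 365 in embryos 1, 2 and 3, which was 1111 of the 21595 cells. Their own markers summed to 880, 1007 and 767 UMIs per 1000000 (CPM), against 30.03, 46.0 and 33.7 CPM of the same markers in definitive-endoderm-like cells. Although extraembryonic tissue was dissected away, 2882 extraembryonic-mesenchyme-like and 2657 extraembryonic-endoderm-like cells carried the markers of those lineages. The mesenchyme-like cells also held 116, 120 and 101.5 CPM of the cardiac-crescent markers in embryos 1, 2 and 3. No lineage of lateral plate mesoderm was offered, so that their name does not tell extraembryonic from embryonic mesoderm. Only 2 erythroid-like cells were found in embryo 1, so that lineage was read in embryos 2 and 3. The library of embryo 2 stood apart from the other 2 in the levels of these genes, and results are therefore given with and without it.

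Promoter sequence from RefSeq (GRCm38.p6) is shown for 6 of the 10 genes, chosen because they stand for the patterns described here. Myl7 and Actc1 were highest in cardiac-crescent-like cells, Tnnt2 was also high in extraembryonic-mesenchyme-like cells, and Myl3, Myh7 and Tnnc1 were also high in definitive-endoderm-like cells. Each run is the 250 bases before an annotated start, 5′ to 3′ on the gene's strand, and capitals mark any match, on either strand, to the CArG box bound by SRF, the MEF2 box, GATAA (GATA factors), TNAAGTG (NKX2-5), CATTCC (the M-CAT element of TEAD factors) or TATAAA (the TATA box).
Myl7 (chr11:5898783-5899032, minus strand): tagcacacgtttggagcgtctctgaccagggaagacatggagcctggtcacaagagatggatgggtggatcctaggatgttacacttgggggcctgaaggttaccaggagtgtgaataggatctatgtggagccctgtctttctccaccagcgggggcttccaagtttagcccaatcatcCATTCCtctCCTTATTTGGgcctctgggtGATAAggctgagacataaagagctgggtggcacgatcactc
Actc1 (chr2:114052876-114053125, minus strand): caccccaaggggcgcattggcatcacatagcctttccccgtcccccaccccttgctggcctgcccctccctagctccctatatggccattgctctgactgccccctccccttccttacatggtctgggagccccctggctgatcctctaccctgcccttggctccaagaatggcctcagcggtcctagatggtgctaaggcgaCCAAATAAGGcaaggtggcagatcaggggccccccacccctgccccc
Tnnt2 (chr1:135836084-135836333, plus strand): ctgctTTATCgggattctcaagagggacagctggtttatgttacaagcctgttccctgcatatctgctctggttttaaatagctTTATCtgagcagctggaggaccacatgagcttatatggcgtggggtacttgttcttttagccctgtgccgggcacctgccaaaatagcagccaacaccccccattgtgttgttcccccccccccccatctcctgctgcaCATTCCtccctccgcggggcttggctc
Myl3 (chr9:110763428-110763677, plus strand): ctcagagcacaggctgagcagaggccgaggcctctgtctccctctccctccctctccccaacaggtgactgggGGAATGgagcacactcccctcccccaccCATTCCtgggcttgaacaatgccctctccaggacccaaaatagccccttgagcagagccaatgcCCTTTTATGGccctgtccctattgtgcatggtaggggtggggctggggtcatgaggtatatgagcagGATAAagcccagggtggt
Myh7 (chr14:54994627-54994876, minus strand): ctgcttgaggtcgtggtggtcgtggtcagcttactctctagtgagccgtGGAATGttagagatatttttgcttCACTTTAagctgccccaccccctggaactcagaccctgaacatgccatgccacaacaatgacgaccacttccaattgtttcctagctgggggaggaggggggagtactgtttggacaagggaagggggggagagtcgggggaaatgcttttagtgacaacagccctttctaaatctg
Tnnc1 (chr14:31208062-31208311, plus strand): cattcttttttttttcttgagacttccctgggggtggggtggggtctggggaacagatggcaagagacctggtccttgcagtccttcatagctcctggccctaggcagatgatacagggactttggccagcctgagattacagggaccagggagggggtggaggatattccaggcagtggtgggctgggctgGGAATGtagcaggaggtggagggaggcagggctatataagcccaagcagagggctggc
All 10 genes had a RefSeq window, 13 windows in all because Tnnt2, Tnni1 and Myh7 have more than 1 start. For Tnnt2 and Myh7 the window shown is the one with matches, and the other held none. A CArG box lay in 3 of the 13 windows, before Myl7, Myl3 and Actc1, beside 1.47% of all 32851 windows of that length. CATTCC lay in 6 of the 13 windows, each before another gene (Myl7, Myl3, Tnnt2, Tnnc1, Myh6 and Myh7), beside 12.6% of all windows. GATAA was found in 3 of the 13 windows, before Myl7, Myl3 and Tnnt2 (22.6% of all windows). TNAAGTG lay in 1 window, before Myh7 (10.1%), a MEF2 box in 1, before Ttn (0.508%), and TATAAA in none of them (12.4%). No 2 of these matches overlapped. Myl3, with a CArG box, CATTCC and GATAA, thus carried the same 3 matches as Myl7, although the levels of these 2 genes across lineages differed as described below. Such matches describe the letters of the window and not binding.

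In cardiac-crescent-like cells Myl7, the regulatory light chain of the early heart and later of the atria, was the most abundant, with 661, 1477 and 603 CPM in embryos 1, 2 and 3. Because only the 3′ ends of transcripts were counted, levels of different genes were compared without division by length. The thin-filament and light-chain genes Tnnt2 (137, 477 and 109 CPM), Myl4 (119, 364 and 95.1 CPM) and Tnni1 (69.4, 195 and 60.1 CPM) followed in embryos 1 and 3, while in embryo 2 Actc1 and Ttn exceeded Tnni1. Actc1 was at 59.7, 350 and 44.4 CPM, Tnnc1 at 45.04, 174 and 39.9 CPM and Ttn at 38.7, 231 and 26.5 CPM. The heavy chains and the ventricular light chain were far lower. Myh7, the slow heavy chain, had 9.25, 35.5 and 5.27 CPM, Myl3, the ventricular essential light chain, 3.74, 38.6 and 3.22 CPM, and Myh6, the fast heavy chain, 3.92, 29.3 and 2.32 CPM. Embryo 2 was the highest for each of the 10 genes, and embryo 1 stood above embryo 3 in each.

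**Figure D1:**
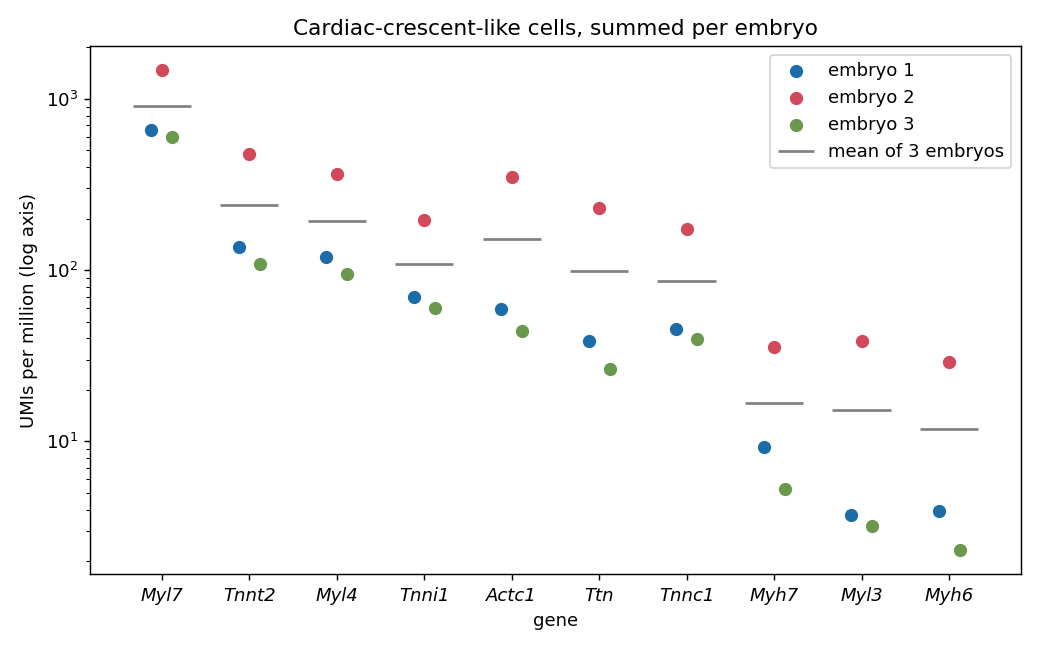
CPM of each gene (log axis) in the cardiac-crescent-like cells of the 3 embryos, with 1 point per embryo and a grey bar at the mean of the 3. Myl7 is highest in every embryo, and embryo 2 lies above embryos 1 and 3 for each of the 10 genes.

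The distance of embryo 2 from the other 2 embryos differed between genes. Its level over the mean of embryos 1 and 3 was 2.34-fold for Myl7 and 3.02-fold for Tnni1, the smallest, and 11.1-fold for Myl3 and 9.38-fold for Myh6, the largest. Ttn (7.08-fold) and Actc1 (6.72-fold) lay between. All 10 genes exceeded 2-fold, as did 1.45% of 11721 genes. Embryos 1 and 3 differed from each other by between 1.10-fold (Myl7) and 1.75-fold (Myh7). With 1 embryo on the one side these ratios have no test.

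The higher levels of embryo 2 had a different make-up for different genes. After every cell was thinned to 5000 UMIs, Myl7 was detected in 74.8% (Clopper-Pearson 95% interval 69.8 to 79.3), 72.7% (68.1 to 77.0) and 75.1% (70.3 to 79.4) of the cardiac-crescent-like cells of embryos 1, 2 and 3, so that the share of positive cells was not higher in embryo 2. Instead the positive cells held more, 10.3 Myl7 UMIs per positive cell in embryo 2 beside a mean of 4.84 in embryos 1 and 3. For Ttn the share itself rose, with 13.2%, 33.0% and 8.77% of cells positive, as did the UMIs per positive cell (3.26 beside 1.69). For Myh7 the share was 10.4% in embryo 2 beside a mean of 3.87%, with 1.06 times as many UMIs per positive cell. The latter ratio is uncertain, as these UMIs were 1.06, 1.5 and 1.78 in embryos 1, 2 and 3. Only 9 cells were positive in embryo 3. Intervals here cover counting error only.

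Heart regulators had smaller ratios, but 5 of them (Nkx2-5, Mef2c, Tbx5, Gata5 and Smarcd3) are markers by which the cells were chosen. Of the 14 none was over 2-fold higher in the cardiac-crescent-like cells of embryo 2, and their median ratio was 1.16. Nkx2-5 was at 74.9, 110 and 80.5 CPM, Mef2c at 387, 407 and 319 CPM, and Myocd, a cofactor of SRF at CArG boxes, at 55.6, 74.2 and 46.3 CPM. Of further genes with a ratio, 13 of 16 cardiac sarcomere, 7 of 8 smooth muscle, 4 of 8 assembly and chaperone, 3 of 7 excitation and calcium handling and 2 of 8 skeletal muscle sarcomere genes were over 2-fold. Acta2, smooth muscle actin, was at 37.7, 208 and 35.5 CPM. Embryo 2 also had the lowest median UMIs in these cells (26838, 13332 and 17011), and a part of depth or of the embryo's own stage in its levels was not tested.

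Most cardiac-crescent-like cells carried few of the 10 genes. At 5000 UMIs per cell, 17.3%, 17.6% and 16.4% of them held none, and the mean number of the 10 genes per cell was 2.15, 3.61 and 2.03. Cells with 8 or more of the 10 genes made up 2.35%, 11.2% and 1.10% of cardiac-crescent-like cells in embryos 1, 2 and 3. The share of cells without any of them differed little between the 3 embryos, while the share with 8 or more was highest in embryo 2.

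The first comparison set cardiac-crescent-like cells against all other cells, as sums per embryo. With edgeR's quasi-likelihood test and Benjamini-Hochberg adjustment over 15699 genes, 9 of the 10 genes were higher in the cardiac-crescent-like sums, where 6.76% of all genes tested were called higher (16.8% in either direction). The largest difference was that of Ttn, with a log2 fold change of 6.13 ± 0.92 (SE, n = 3 embryos, adjusted p = 0.00288 by edgeR). Myl4 (5.39 ± 0.59) and Actc1 (4.60 ± 0.76), Myl7 (4.56 ± 0.34) and Tnnt2 (4.56 ± 0.64) followed, and Myl7 in all other cells stood at 37.5, 41.1 and 43.1 CPM. Tnni1 had the smallest difference among those called, 3.20 ± 0.44. For 9 genes the 3 cardiac-crescent-like sums lay above all 3 sums of the other cells, a gap that was not counted over all genes tested.

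Myl3 did not pass, with a log2 fold change of 2.46 ± 0.83 (adjusted p = 0.0802 by edgeR), and its sums overlapped, since the other cells held 2.47, 4.07 and 1.79 CPM. With the embryo as a block it passed (1.95, adjusted p = 0.00593 by edgeR), in a fit that called more genes over all, as given in the closing section. Without embryo 2 the difference of Myl3 was 0.79 (adjusted p = 0.158 by edgeR) and that of Myh6 1.93 in place of 3.91 ± 0.85 (adjusted p = 0.0594 by edgeR). The other 8 genes passed without embryo 2 with log2 fold changes between 2.69 (Tnni1) and 5.24 (Ttn), so that Actc1, at 3.29, and Myh7, at 2.72, were the ones with the largest drop among them.

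Related genes were higher in the same sums to different extents. Of 20 further cardiac sarcomere genes 18 were tested and 11 were higher, with a median log2 fold change of 1.77 beside -0.01 over all genes tested. Xirp1 (7.02 ± 0.98) and Csrp3 (5.07 ± 0.69), both of the Z-disc and its attachments, and Mybpc3 (5.51 ± 1.17), myosin binding protein C, were among the 4 with the largest change, with Smpx (5.39 ± 0.69). Of the sarcomere assembly and muscle chaperone genes 7 of 8 were higher, led by the small heat shock protein Hspb7 (5.82 ± 0.91) and the myosin chaperone Unc45b (5.57 ± 0.68). Hspb7 was likewise scarce, at 0.841, 4.96 and 0.643 CPM. Among excitation and calcium handling genes 6 of 8 were higher, such as the calcium release channel Ryr2 (4.66 ± 0.22) and Hcn4 (2.90 ± 0.33), the pacemaker channel. Heart regulators (13 of 14 higher, 1 lower) hold 5 of the 6 markers that set the lineage and so partly restate the rule. Of the skeletal muscle sarcomere genes 4 of 10 were higher, with Acta1 (3.02 ± 0.84) first, and of the smooth muscle genes 3 of 8, with Lmod1 (3.66 ± 0.69) first. Both were scarce as well, Acta1 at 0.934, 7.75 and 0.386 CPM and Lmod1 at 0.934, 8.05 and 1.93 CPM.

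Across lineages the 10 genes fell into different patterns. Of all Myl7 UMIs in quality-controlled cells, 50.99%, 62.7% and 40.8% came from cardiac-crescent-like cells, and for Ttn, the gene with the largest such share, it was 69.8%, 80.5% and 61.3%. For Myl3 only 8.20%, 30.7% and 8.14% of UMIs came from there, and 54.5%, 36.6% and 47.6% came from definitive-endoderm-like cells. Myl7, Myl4, Tnnt2, Tnni1, Tnnc1, Actc1 and Ttn were highest in cardiac-crescent-like cells, whose 3 sums did not overlap those of the next lineage. This gap was not counted over all genes either. For Myl7 the order went on with cardiopharyngeal-like (107 CPM on average), endothelium-like (89.4 CPM) and extraembryonic-mesenchyme-like cells (82.3 CPM), whose neighbours in the order overlapped. For Myh6 and Myh7 the cardiac-crescent-like sums came first on average but overlapped those of definitive-endoderm-like cells, and for Myl3 definitive-endoderm-like cells came first with the same overlap.

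**Figure D2:**
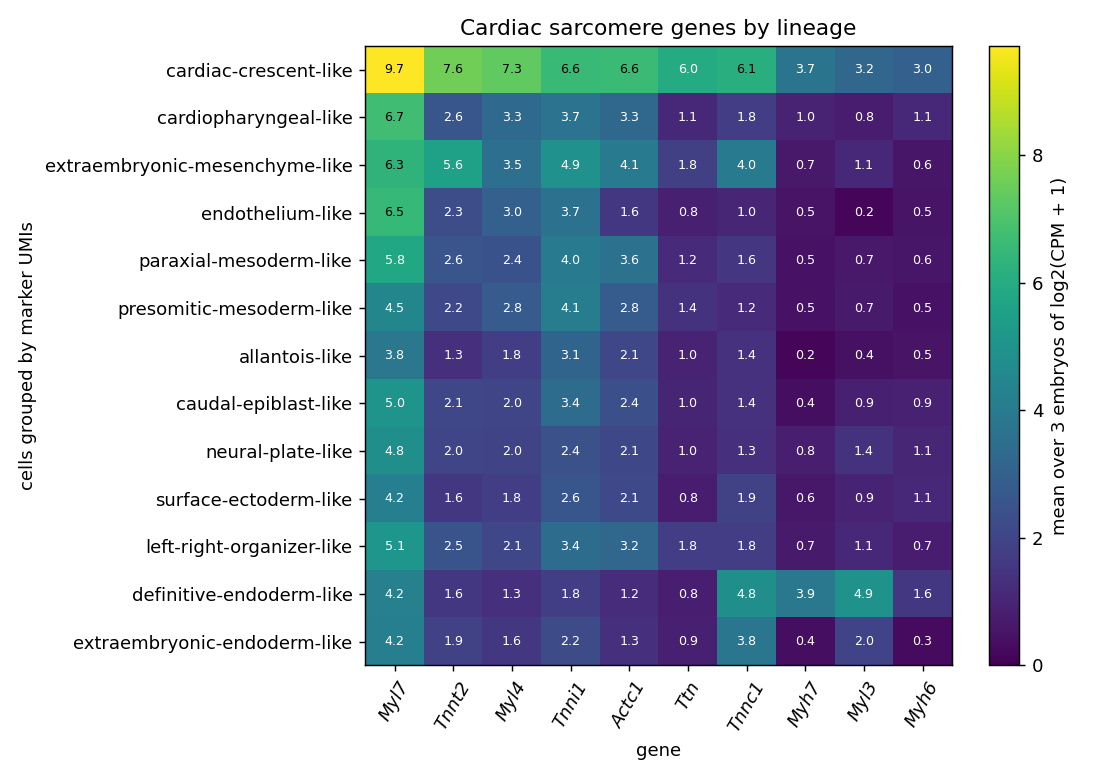
Mean over the 3 embryos of log2(CPM + 1) of each gene (columns) in 13 lineages set by marker UMIs (rows), with the value printed in each cell. The cardiac-crescent-like row is highest in all columns except those of Myl3 and Myh7, which reach 4.94 and 3.88 in definitive-endoderm-like cells beside 3.21 and 3.73.

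The cardiopharyngeal-like cells (markers including Isl1, Tbx1, Fgf10, Fgf8 and Eya1), a pool of mesoderm next to the crescent that later adds to the heart and the muscles of the head, were the most similar lineage by origin and numbered 114, 102 and 99. They held Myl7 at 127, 73.5 and 122 CPM, above the 23.8, 23.7 and 36.7 CPM of neural-plate-like cells, but Tnnt2 at only 2.78, 11.5 and 3.56 CPM and Ttn at 1.95, 0.639 and 0.891 CPM. Between the 2 lineages 7 of the 10 genes were higher in cardiac-crescent-like cells, where 2.84% of 10709 genes tested were called higher (4.21% in either direction). Ttn (6.16 ± 1.23), Tnnt2 (5.60 ± 0.74) and Tnnc1 (5.21 ± 0.82) had the largest log2 fold changes, and Myl7 had the smallest of those called, 3.07 ± 0.32 (adjusted p = 0.000224 by edgeR). The cardiopharyngeal-like sums held 579, 213 and 348 UMIs of the 10 genes. Ttn made up only 1.21%, 0.469% and 0.575% of these, and Tnnc1 1.21%, 2.35% and 1.44%. The size and order of the changes of Ttn and Tnnc1 thus rest on a few UMIs in that lineage.

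Myl3 (4.13 ± 1.43, adjusted p = 0.188 by edgeR), Myh6 (3.36 ± 1.24, adjusted p = 0.232) and Myh7 (3.87 ± 1.04, adjusted p = 0.0681) did not pass, with at most 5 UMIs of each in any cardiopharyngeal-like sum. All 10 genes passed with the embryo as a block (the largest adjusted p was 3.42e-05, for Myh6, by edgeR). That fit called more genes over all, as given in the closing section. The shares of called genes given above are therefore not those for its calls. Without embryo 2 the same 7 genes and Myh7 (3.80, adjusted p = 0.0223 by edgeR) passed. Without embryo 1 the calls fell to 3 genes (Myl7, Myl4 and Tnnt2), with the log2 fold changes of the others still between 3.35 (Tnni1) and 7.29 (Ttn). The cardiopharyngeal-like sums left in that fit held Ttn at only 0.639 and 0.891 CPM. Among further cardiac sarcomere genes 4 of 9 tested were higher, led by the Z-disc genes Ldb3 (7.48 ± 1.53) and Csrp3 (6.76 ± 1.19), beside a median of 2.30 for the list and -0.01 for all genes. Smooth muscle genes were higher in 4 of 6, with Actg2 (4.78 ± 1.03) and Acta2 (4.47 ± 0.89), excitation and calcium handling genes in 4 of 5 and assembly and chaperone genes in 5 of 7. Skeletal muscle sarcomere genes were higher in 1 of 5 (Tnnt3, 0.88 ± 0.22), and heart regulators in 10 of 14 with 1 lower (Tbx1, -2.33 ± 0.15), a list that again holds markers of both lineages.

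Definitive-endoderm-like cells (markers Sox17, Foxa1, Foxa2, Trh, Cpn1 and Pax9), which line the future gut beneath the crescent, held a selection of the 10 genes. Myl3 was at 21.2, 46.1 and 26.6 CPM in embryos 1, 2 and 3, Tnnc1 at 22.2, 33.4 and 27.9 CPM and Myh7 at 19.0, 14.4 and 9.29 CPM. Myl3 and Myh7 were thus higher there than in the cardiac-crescent-like cells of embryos 1 and 3, and in embryo 2 Myl3 was higher and Myh7 lower than in them. In the same cells Tnnt2 (1.12, 3.57 and 1.82 CPM), Actc1 (0.719, 2.02 and 1.46 CPM) and Ttn (0.719, 0.621 and 0.911 CPM) stayed at 3.57 CPM or below.

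A comparison of these cells with all other cells outside the cardiac-crescent-like and cardiopharyngeal-like lineages was added after the levels had been seen. In it 4 of the 10 genes were higher and 5 lower, where 16.6% and 16% of the 15890 genes tested were called higher and lower, 32.6% together. Myh7 rose by 4.88 ± 0.36 on the log2 scale (adjusted p = 2.41e-05 by edgeR) over 0.454, 0.698 and 0.300 CPM in the other cells, and Myl3 by 4.52 ± 0.39 (adjusted p = 5.05e-05 by edgeR) over 1.08, 2.03 and 0.900 CPM. Tnnc1 was higher by 2.29 ± 0.35 and Myh6 by 1.82 ± 0.49, in 3 of 3 embryos each. The sums of Myh6 overlapped between the groups, and its call was lost without embryo 1 (1.34, adjusted p = 0.0689 by edgeR) or embryo 2 (1.81, adjusted p = 0.0944 by edgeR). Tnnt2 (-2.50 ± 0.50), Actc1 (-2.42 ± 0.36), Tnni1 (-2.40 ± 0.38), Myl4 (-1.80 ± 0.47) and Myl7 (-1.21 ± 0.17) were lower, and Ttn did not pass (-1.06 ± 0.61). Without embryo 3 the calls of Tnnt2 (-2.56, adjusted p = 0.0516) and Myl4 (-2.14, adjusted p = 0.0624) were lost in the edgeR fit.

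**Figure D3:**
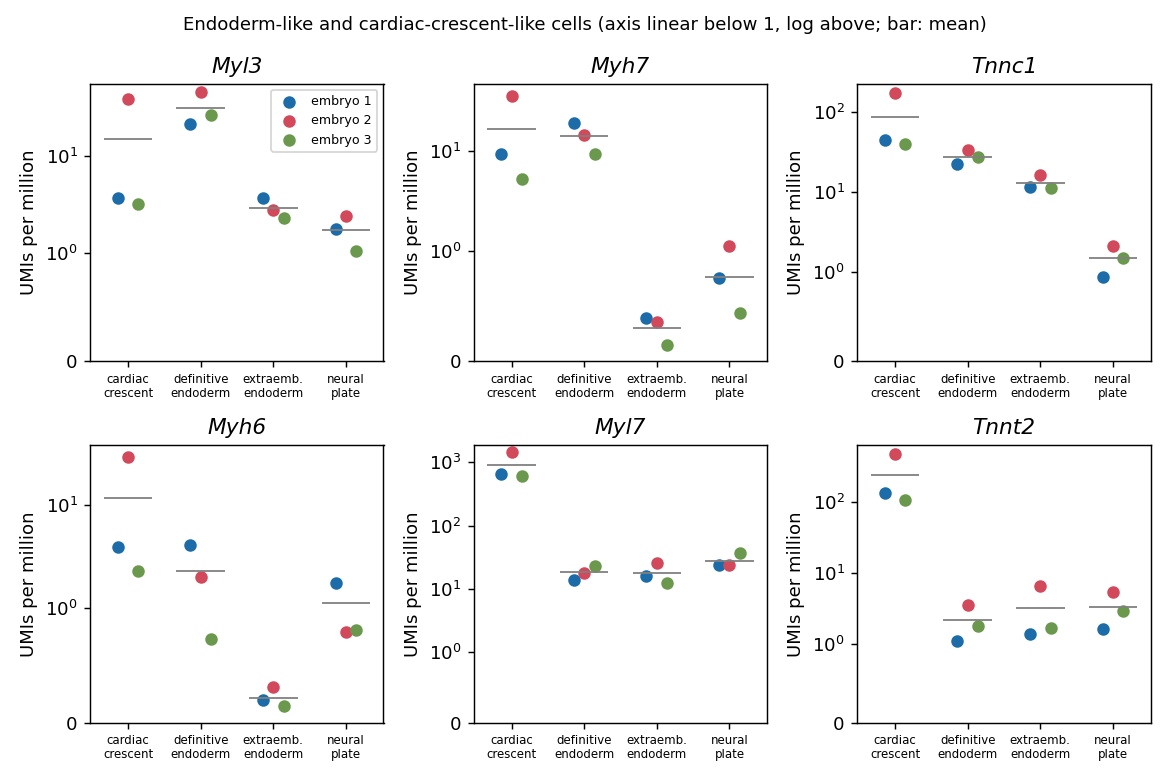
CPM (linear below 1, log above) of 6 genes in cardiac-crescent-like, definitive-endoderm-like, extraembryonic-endoderm-like and neural-plate-like cells, with 1 point per embryo and a bar at the mean. Myl3 and Myh7 reach cardiac-crescent-like levels in definitive-endoderm-like cells, and Tnnc1 is raised in both endoderm-like lineages, while Myl7 and Tnnt2 are not.

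These levels were spread over many cells. At 5000 UMIs, Myl3 was detected in 36 of 409 (8.80%, interval 6.24 to 12.0), 76 of 346 (22.0%, 17.7 to 26.7) and 36 of 278 (12.9%, 9.24 to 17.5) definitive-endoderm-like cells, and no single cell held more than 7 of its UMIs before thinning. In cardiac-crescent-like cells the share was 2.05%, 10.7% and 2.47%, and in erythroid-like cells, a lineage outside the muscle programme, 0.233% in embryo 2 and 0 of 319 in embryo 3 (a count of 0 allows a share of cells with a UMI of up to 0.940%, from 3 counts). Myl7, which exceeded Myl3 in the cardiac-crescent-like cells of each embryo, was below it in the definitive-endoderm-like cells of each. Cells with 5 or more of the 10 genes were at most 1 per embryo in this lineage. Nkx2-5, which also marks pharyngeal endoderm, was higher in these cells by 2.60 ± 0.37 on the log2 scale, and Isl1 by 2.10 ± 0.19. Both are markers of the heart lineages left out of the other cells, so the rule took cells rich in them from that side. Myl3 was detected in 14.5%, 19.2% and 13.6% of definitive-endoderm-like cells with an Nkx2-5 UMI and none of Mef2c, and in 8.24%, 22.6% and 13.4% of those with neither, a difference that was not tested.

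Few other contractile genes went with them. Of 13 further cardiac sarcomere genes tested in definitive-endoderm-like cells 1 was higher (Tpm1, a tropomyosin expressed in many cell types, 0.86 ± 0.08) and 3 were lower (Nexn, -1.57 ± 0.18, Myl2, -1.53 ± 0.35, and Des, -1.35 ± 0.18), with a median of -1.01 beside -0.02 over all genes. The smooth muscle list split, with Myh11 (2.73 ± 0.60) and Myl9 (2.08 ± 0.16) higher and Actg2 (-4.89 ± 0.77) and Acta2 (-3.31 ± 0.57) lower. Among the remaining lists Smyd1, a muscle methyltransferase (1.68 ± 0.31), was higher, and Ryr2 (-1.52 ± 0.39) and the splicing factor Rbm24 (-1.19 ± 0.23) lower. Cryab (1.08 ± 0.34) was higher, and the skeletal muscle list had 1 of 10 higher (Tnnt1, 0.74 ± 0.19) and 2 lower (Tnni2, -2.70 ± 0.74, and Myl1, -2.61 ± 0.61). In extraembryonic-endoderm-like cells Tnnc1 was at 11.5, 16.6 and 11.3 CPM, beside 15.9, 26.1 and 12.3 CPM of Myl7, while Myl3 had 3.72, 2.81 and 2.29 CPM and Myh7 0.392, 0.351 and 0.150 CPM.

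Extraembryonic-mesenchyme-like cells (markers Ahnak, Bmp4, Hand1, Foxf1, Prdm6 and Tdo2), which may include embryonic mesoderm, held a different selection. Tnnt2 was at 31.4, 85.2 and 36.8 CPM, Tnni1 at 22.1, 47.1 and 23.8 CPM, Tnnc1 at 11.7, 25.7 and 10.3 CPM and Actc1 at 9.73, 29.8 and 12.7 CPM. Against all other cells outside the 2 heart lineages 6 of the 10 genes were higher, where 11.4% of 15671 genes tested were called higher (25.5% in either direction). Tnnt2 differed most (3.91 ± 0.50, adjusted p = 0.00112 by edgeR), followed by Actc1 (2.00 ± 0.39), Myl4 (1.90 ± 0.49), Tnni1 (1.85 ± 0.30), Tnnc1 (1.70 ± 0.42) and Myl7 (1.42 ± 0.26). Ttn (1.66 ± 0.74, adjusted p = 0.145), Myh6 (-0.68 ± 0.50, adjusted p = 0.377), Myh7 (-1.19 ± 0.47, adjusted p = 0.104) and Myl3 (-1.11 ± 0.64, adjusted p = 0.263) did not pass in the edgeR fit. With the embryo as a block Ttn was called higher (1.37, adjusted p = 0.0161), and Myl3 (-1.24, adjusted p = 0.0265) and Myh7 (-1.16, adjusted p = 0.00561) lower, by edgeR. The fit with the block called more genes over all, as given in the closing section. The 14.1% of genes called lower without the block is therefore not the share for these calls. Without embryo 2 all 6 passed, and Myl3 was lower (-2.06, adjusted p = 0.0177 by edgeR). Without embryo 3 only Tnnt2 and Tnni1 remained past the threshold, with the other 4 at adjusted p between 0.0521 (Myl7) and 0.0980 (Tnnc1).

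Tnnt2 was detected in 10.0%, 22.1% and 12.0% of extraembryonic-mesenchyme-like cells at 5000 UMIs, and Myl7 in 15.9%, 19.9% and 17.2%. In cardiac-crescent-like cells Tnnt2 was detected in 32.3%, 58.1% and 31.8%, beside the 74.8%, 72.7% and 75.1% of Myl7. Embryo 2 was again the highest for each of the 10 genes here. Smooth muscle genes were higher in 7 of 9, with Acta2 (4.65 ± 0.51) and Tagln (3.98 ± 0.35) first, and the heart regulators in 11 of 14, with Hand1 (3.22 ± 0.14), itself a marker that set this lineage, and Tbx20 (2.83 ± 0.14) first. That list also holds markers of the heart lineages left out of the other cells, so the rule took cells rich in them from that side. Of these markers Mef2c, Tbx5, Gata5, Smarcd3 and Isl1 were higher, Tbx1 was lower and Nkx2-5 did not pass. Further cardiac sarcomere genes split into 6 of 14 higher, such as Csrp3 (3.34 ± 0.65), Nebl (3.01 ± 0.27) and Nexn (2.39 ± 0.22), and 2 lower, of which Myom2 (-2.07 ± 0.47) changed most. Popdc2 (3.40 ± 0.22), Cryab (2.97 ± 0.37) and Ryr2 (2.42 ± 0.21) were higher too, and 3 of 10 skeletal muscle genes were, with Tnni2 (2.58 ± 0.26) first.

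Single genes departed from the others in a few more lineages. Tnni1, the slow skeletal isoform that also serves the embryonic heart, was at 15.7, 18.1 and 15.1 CPM in presomitic-mesoderm-like and 17.3, 14.9 and 14.5 CPM in paraxial-mesoderm-like cells, and at 19.1 and 25.0 CPM in the erythroid-like cells of embryos 2 and 3. In the latter it was detected in 7.92% and 12.9% of cells, above Myl7 (3.61% and 7.52%), although Myl7 was the more abundant gene in cardiac-crescent-like cells. Actc1 reached 12.8, 9.25 and 12.1 CPM in paraxial-mesoderm-like cells, the source of skeletal muscle. Myl7 was at 104, 80.2 and 83.8 CPM in endothelium-like cells, where Tnnt2 had 2.47, 5.92 and 4.09 CPM and Actc1 2.85, 2.22 and 1.15 CPM. The left-right-organizer-like cells of embryo 2 had 63.6 CPM of Myl7 and 30.9 CPM of Actc1 beside 20.9 and 3.58 CPM in embryo 1, but a single cell held 59 of the 72 Myl7 UMIs and a single cell 32 of the 35 Actc1 UMIs.

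The next question was in which order the genes appear in cells with a UMI of Nkx2-5 or Mef2c. Endothelium-like cells, which use Mef2c too, were left out, and 3945 cells remained (1411, 1239 and 1295). Of these 27.2% were cardiac-crescent-like, a lineage of which both factors are markers. As only 3938 of them had 5000 UMIs, shares are over those. Order here means how widely a gene was detected and not time, since each embryo was sampled once. Myl7 was detected in 34.9%, 41.7% and 42.4% of these cells, Tnnt2 in 11.3%, 28.4% and 14.9%, Tnni1 in 12.5%, 23.7% and 13.3% and Myl4 in 10.1%, 22.6% and 11.8%. Actc1 followed with 6.09%, 15.9% and 6.65%, Tnnc1 with 5.46%, 15.8% and 6.88% and Ttn with 4.04%, 13.4% and 2.78%. Myl3 (1.42%, 5.43% and 1.39%), Myh7 (2.20%, 4.62% and 0.928%) and Myh6 (1.13%, 3.08% and 0.387%) came last.

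Myl7 was at rank 1, Myl4 at rank 4, Ttn at rank 7 and Myh6 at rank 10 in each of the 3 embryos. The other 6 places changed between neighbours, with Tnnt2 and Tnni1 at ranks 2 and 3, Actc1 and Tnnc1 at 5 and 6, and Myl3 and Myh7 at 8 and 9, in one order or the other. This is the order of a mixture of lineages. In cardiac-crescent-like cells alone Myl4 (37.4%, mean of the 3 embryos) stood before Tnni1 (33.9%). Tnnc1 (21.1%) stood before Actc1 (19.3%) there. In cells with neither factor Myl7 was in 9.14%, 7.20% and 10.2%.

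The cells that carried exactly 1 of the 10 genes showed the same lead. There were 411, 270 and 401 of them, and in 63.5%, 51.1% and 67.8% the gene was Myl7, followed by Tnni1 with 14.4%, 14.4% and 11.7%. Ttn was the single gene in 6, 3 and 1 cells. Of pooled cells with Ttn, 94.2% also had Myl7 and 82.6% also had Tnnt2, while 15.6% of cells with Myl7 had Ttn. Of pooled cells with Myh6 88.1% had Myl7 and 81.4% had Myl4. Embryo 2 held 165 of the 258 pooled cells with Ttn and 38 of the 59 with Myh6. By embryo 68.8%, 94.7% and 100% of the 16, 38 and 5 cells with Myh6 had Myl7. Among the scarce genes Myl3 and Myh7 had lower pooled shares, as 66.7% of cells with Myl3 and 75% of those with Myh7 had Myl7, and 22.9% and 16% had none of the other 9 genes. By embryo the share with Myl7 was 50%, 74.6% and 55.6% for Myl3 and 64.5%, 80.7% and 75% for Myh7. In embryo 1 Myh7 thus lay close to Myh6. These shares depend on how abundant each gene is, because a gene with more UMIs is detected in more cells.

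A measure less tied to abundance set each gene's mean UMIs in bins of the summed UMIs of the other 9 genes against its own highest bin of at least 20 cells. For every gene but Myl7 that sum is in large part Myl7, with 57.6%, 43.8% and 61.0% of the UMIs of the 10 genes in cardiac-crescent-like cells. The cells are also the same mixture of lineages. Tnni1 was detected in 7.16% of the pooled cells that had no UMI of the other genes. In cells with 6 to 10 such UMIs, Tnni1 had reached 55.1%, 34.0% and 31.7% of its top level in embryos 1, 2 and 3, Tnnt2 23.2%, 18.5% and 26.2%, and Myl4 21.3%, 10.9% and 28.0%. Actc1 had reached 6.84%, 5.23% and 12.9%. Among Tnni1, Tnnt2, Myl4, Tnnc1, Ttn and Actc1, the first had the highest and the last the lowest such value in every embryo, although Actc1 stood before Tnnc1 and Ttn in the order by share. Pooled over embryos, Tnni1 stood at 43.5% of its top level in cells with 11 to 20 UMIs of the others, Tnnc1 at 24.4%, Tnnt2 at 23.9%, Myl4 at 22.4%, Myl3 at 12.7%, Ttn at 11.6%, Actc1 at 9.42%, Myh6 at 6.29% and Myh7 at 5.47%. This order was not that of each embryo, as Ttn stood at 60.6%, 12.3% and 48.8% in that bin in embryos 1, 2 and 3 beside 56.1%, 25.5% and 43.4% for Tnnt2. The top bin, over 50 UMIs, was filled mostly by embryo 2 (32 of 37 cells for Ttn), and embryos 1 and 3 ended in the bin of 21 to 50. For Myl7 the highest bin with at least 20 cells was that of 21 to 50 UMIs (69 cells), so its percentages (33.2% at 6 to 10 and 54.9% at 11 to 20, pooled) refer to another bin than those of the other genes.

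**Figure D4:**
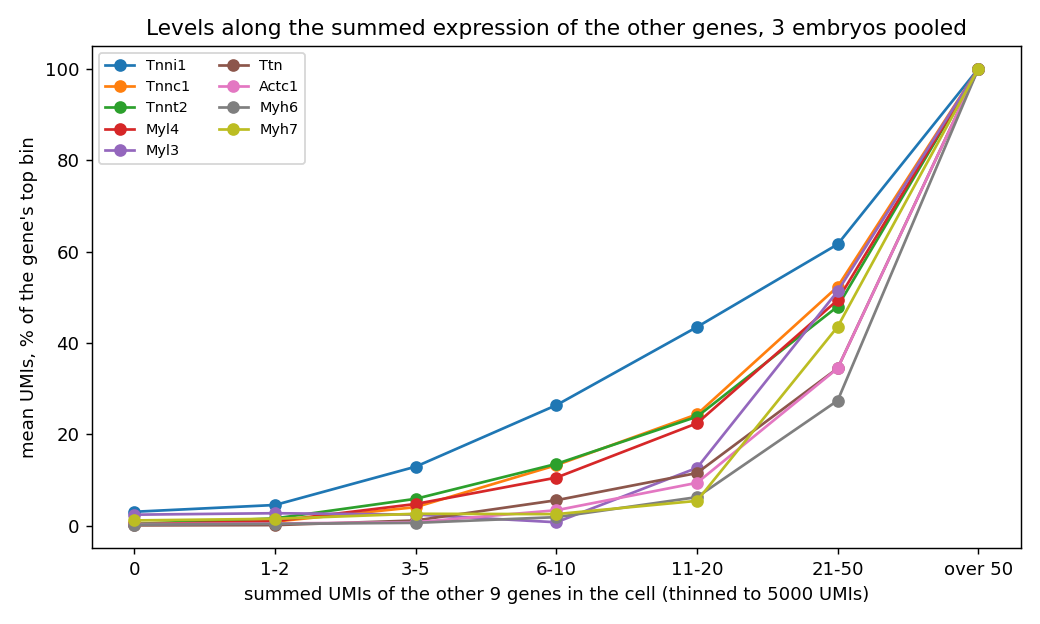
Mean UMIs of 9 genes, as a percentage of the gene's top bin, in cells with Nkx2-5 or Mef2c grouped by the summed UMIs of the other 9 genes (cells thinned to 5000 UMIs, 3 embryos pooled, Myl7 left out because only 8 of its cells lay in the last bin). Tnni1 lies highest in every bin before the last, from 3.08% of its top in cells with no UMI of the other genes. The last bin comes mostly from embryo 2, so that the order of the other genes is mainly that of this embryo.

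The factors divided the cells unevenly. Both Nkx2-5 and Mef2c were detected in 1114 cells, of which 67.5% were cardiac-crescent-like. Nkx2-5 without Mef2c was detected in 449, of which 29.0% were definitive-endoderm-like, 4.90% cardiac-crescent-like and 7.80% extraembryonic-mesenchyme-like. Mef2c without Nkx2-5 was detected in 2382, of which 1.18% were definitive-endoderm-like, 12.5% cardiac-crescent-like and 16.3% extraembryonic-mesenchyme-like. In cells with both, Myl7 was found in 65.4%, 74.5% and 70.3% and Tnnt2 in 25.3%, 53.9% and 26.5%. In cells with Mef2c only these were 24.5%, 29.8% and 32.3% for Myl7 and 7.51%, 20.1% and 11.8% for Tnnt2. In cells with Nkx2-5 only Myl7 was found in 25.0%, 15.4% and 23.7% and Tnnt2 in 0.735%, 4.14% and 1.44%, while Myl3 was found in 7.35%, 8.28% and 3.60%.

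**Figure D5:**
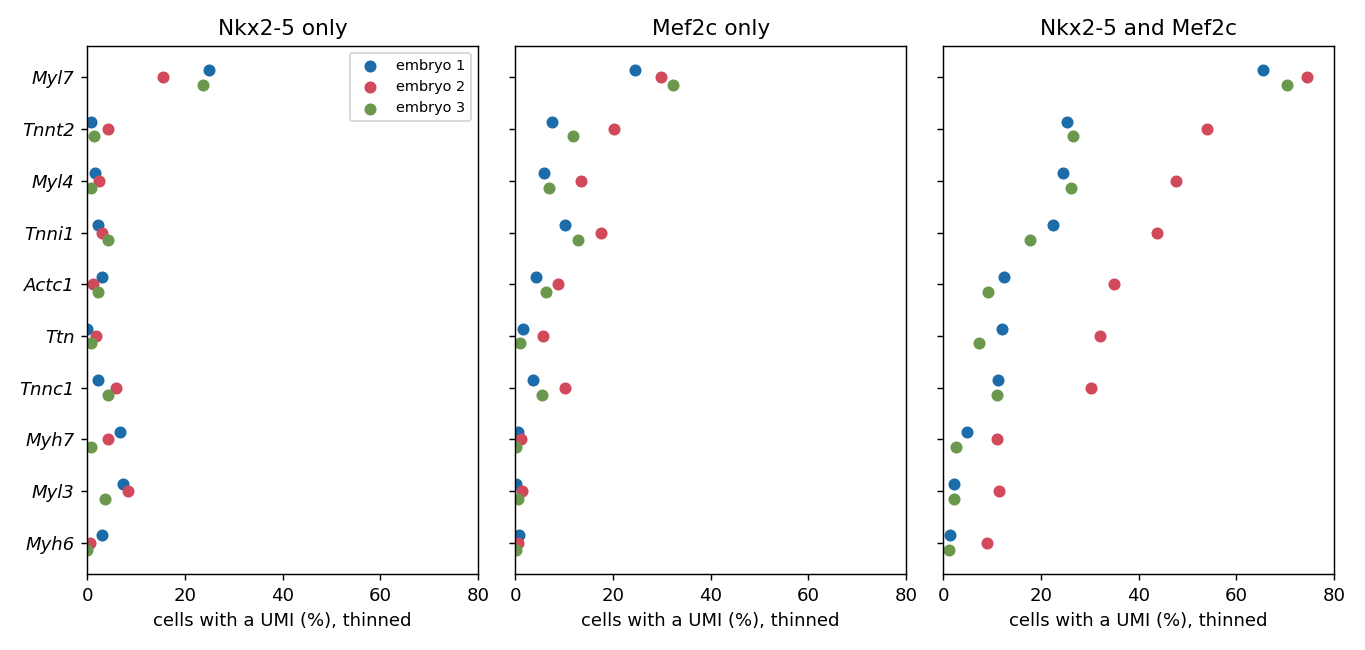
Share of cells with a UMI of each gene, after thinning to 5000 UMIs, in cells with Nkx2-5 only, with Mef2c only and with both, with 1 point per embryo. The shares of Myl7, Tnnt2, Myl4, Tnni1, Tnnc1, Actc1 and Ttn are largest in cells with both factors in every embryo, and Myl3 and Myh7 lie above Tnnt2 and Myl4 in embryo 1 of the cells with Nkx2-5 only.

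Cells with Nkx2-5 only were then set against cells with Mef2c only, as sums per embryo. The groups also differed in their shares of cardiac-crescent-like and extraembryonic-mesenchyme-like cells, and a part of these shares in the differences was not tested. Myl3 (3.11 ± 0.51, adjusted p = 0.00835 by edgeR) and Myh7 (2.75 ± 0.54, adjusted p = 0.0190 by edgeR) were higher with Nkx2-5 only, where 3.87% of the 12414 genes tested were called higher (4.91% in either direction). Myl4 (-2.65 ± 0.59), Tnnt2 (-2.42 ± 0.58), Actc1 (-2.10 ± 0.43), Tnni1 (-1.95 ± 0.38) and Myl7 (-1.25 ± 0.21) were lower, where 1.04% of genes were called lower. Ttn (-3.12 ± 0.99, adjusted p = 0.124), Tnnc1 (-0.95 ± 0.47, adjusted p = 0.343) and Myh6 (0.10 ± 0.62, adjusted p = 0.970) did not pass in the edgeR fit. With the embryo as a block Ttn (-3.02, adjusted p = 0.000126 by edgeR) and Tnnc1 (-0.84, adjusted p = 0.0122 by edgeR) were lower as well, in a fit that called more genes over all.

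None of these 7 calls remained when definitive-endoderm-like cells were left out of both groups, a setting chosen after their levels had been seen. The difference of Myl3 was then 1.56 (adjusted p = 0.459 by edgeR) and that of Myh7 0.86 (adjusted p = 0.792 by edgeR), and those of the 5 lower genes lay between -2.31 (Myl4) and -0.996 (Myl7) with adjusted p between 0.0889 and 0.169. Calls across all genes dropped from 609 to 23 in that fit. Without embryo 2 all 7 calls held. Without embryo 1, no gene was called higher and 1 lower (Myl7), and without embryo 3, 1 was higher (Myh7) and none lower. Among the other lists Nebl (-2.68 ± 0.47), Nexn (-1.39 ± 0.34), Myocd (-1.98 ± 0.40) and Ryr2 (-1.69 ± 0.38) were lower with Nkx2-5 only, Tnnt1 (1.33 ± 0.26) was higher, and 0 of 5 smooth muscle genes passed.

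The genes whose levels went most closely with the summed 10 genes were sought over 39 sums (13 lineages in 3 embryos), by Pearson's r of log2(CPM + 1) among 15039 genes. The first 8 outside the 10 were Tbx5 (r = 0.92), Ccdc141 (0.91), Sfrp5 (0.89), Myocd (0.89), Homer2 (0.87), Cpa1 (0.87), Rem1 (0.86) and Ryr2 (0.86). The points share libraries, and the cardiac-crescent-like ones carry most of the range. Over the 36 other sums the same genes had r between 0.55 (Ryr2) and 0.74 (Ccdc141). Tbx5 and Sfrp5 are markers that set the lineage, and Ccdc141 lies next to Ttn on chromosome 2, with 27354 bases between them. The 10 genes are part of the sum they were set against, and Myl7 alone made up 57.6%, 43.8% and 61.0% of it in the cardiac-crescent-like cells. With that, Myl7, Myl4 and Tnnt2 ranked 1, 2 and 5, and Myl3 ranked 505 (r = 0.41).

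Some of the genes lie close together or overlap others in the annotation (GRCm38). Myh6 (chr14:54941921-54966927, minus strand) and Myh7 (chr14:54970684-54994626, minus strand) are neighbouring heavy-chain genes 3756 bases apart. Whether reads that match both were lost from their counts was not measured. Tnni1 (chr1:135779434-135810989) and Tnnt2 (chr1:135836354-135852260), both on the plus strand, lie 25364 bases apart but differed in level in several lineages. Myl3 (chr9:110741861-110769798, plus strand) overlaps Pth1r, and Tnnc1 (chr14:31208312-31211729, plus strand) overlaps Nisch, both on the opposite strand. No counted gene on the same strand overlapped any of the 10.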

How the data were processed

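Single-cell RNA libraries (10x Genomics, 3′ version) were made from embryos whose extraembryonic tissue had been removed. Raw UMI counts per gene and cell were deposited by the authors, who used Cell Ranger 3.1.0 and the mm10 genome. Here cells were kept with at least 1500 genes, at most 8500, 7500 and 8500 genes in embryos 1, 2 and 3, and between 0.5% and 10% mitochondrial UMIs. Total UMIs were 207961733, 149341900 and 167503888. No doublet was removed, and leaving out up to 6% of cells by Scrublet score (scanpy 1.11.5) was an alternative.

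Counts were summed per lineage and embryo and tested with edgeR 4.0.16 (quasi-likelihood, TMM, filterByExpr, Benjamini-Hochberg threshold 0.05), fitted over all genes without a block, and DESeq2 1.42.0 was an alternative. Sums of 1 number come from the same embryo, and their deviations correlated at r between 0.187 and 0.490 in every pair, so the numbers pair the sums. Scripts were tested on simulated data, in which the sums of an embryo shared no effect. The rates that follow therefore need not be those of the paired sums here. At the 0.05 threshold between 4.57% (Nkx2-5 only against Mef2c only) and 11.4% (against cardiopharyngeal-like cells) of the simulated calls were false. Of simulated log2 changes of 1, between 56.6% (extraembryonic-mesenchyme-like) and 75.3% (against cardiopharyngeal-like cells) were recovered.

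The 10 genes and the gene lists were chosen with earlier results of these data known. Named besides the 10 are up to 4 genes of each list with the largest change past the threshold and the 8 genes most like their summed level (among genes with a UMI in at least 100 cells). Levels given for Nkx2-5, Mef2c, Myocd and Acta2 in cardiac-crescent-like cells were chosen after their values were seen. Some list and marker genes are not reported here.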

Additional observations from a re-analysis of the deposited data

How the results depend on the processing

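Of 540 refitted differences of single genes, 484 kept direction and side of the threshold, 35 lost the threshold, 21 gained it and none reversed. Causes were not tested. The embryo as a block moved calls over all genes from 2634 to 4625 (cardiac-crescent-like against all other cells), from 451 to 1034 (against cardiopharyngeal-like), from 609 to 1901 (Nkx2-5 only against Mef2c only) and from 3995 to 6667 (extraembryonic-mesenchyme-like), and calls among the 10 genes in the last from 0 to 2 lower. The calls this gained are named beside their results, and the pairing changed no other call among the 10. Dropping 1 embryo at a time left 911 (without embryo 3) to 1781 (without embryo 1) calls for the first comparison and 1216 without embryo 2, 126 to 263 for the second, 135 to 304 for the third, 1223 (without embryo 3) to 3617 for the fourth with 2119 without embryo 2, and 2392 (without embryo 3) to 4415 for definitive-endoderm-like cells with 3061 without embryo 2 (5176 with all). Among the 10 genes it left 3 (without embryo 1) to 8 higher in the second, 0 to 1 higher and 0 to 1 lower in the third without embryo 1 or 3, 2 higher without embryo 3 and 1 lower without embryo 2 in the fourth, and 3 lower without embryo 3 in definitive-endoderm-like cells. Thinning gave 1741, 223 and 381 calls in the first 3 and 3382 in definitive-endoderm-like cells, with 1 of the 10 genes higher in the third and 1 lower in the fourth. Without a filter on low counts the second had 804 and the third 1134 calls. In the third, leaving out top doublet scores gave 914 calls, keeping endothelium-like cells 399 with 3 of the 10 lower, and leaving out definitive-endoderm-like cells 23 with 0 higher and 0 lower. Of the 10 ranks in the order by share, 6 held unthinned, 6 in cells with both factors, 6 in embryo 1 on its own and 1 in cells with Nkx2-5 only. Myl7 was in 74.2% of cardiac-crescent-like cells on average, 91.4% unthinned and 77.5% with at least 4 markers. With 3 embryos and 1 library each, genes at a few UMIs per sum, such as Myh6, limit what can be read.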
